A study of Rattus norvegicus with 5 samples.

Results

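A set of 162 genes lay lower in each of 3 libraries of treated infarcted rat heart than in the library of infarcted heart left without treatment. The members were chosen by their measured values: on the scale log2(FPKM + 1), the values in the SNAP, DTMS and S-DTMS libraries each had to lie at least 1 below the value in the MI library. FPKM, the number of fragments scaled by gene length and library size, was used as the authors deposited it, and a difference of 1 on this scale is a factor of 2 in FPKM + 1. The table lists 20646 genes, and the background for all shares was the 13769 whose highest FPKM over the libraries was 1 or more. The 162 members were 1.18% of these.

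When a coronary artery is closed, the heart muscle it supplies dies, immune cells clear the dead tissue, and fibroblasts replace it with a collagen scar. RNA taken from the ventricular wall in the following weeks is a mixture from surviving muscle, immune cells, scar-forming cells and vessels. A lower value can therefore come from fewer cells of a type or from less RNA per cell, which bulk libraries cannot tell apart. Nitric oxide, the gas that SNAP releases, relaxes vessels and takes part in the growth of new ones.

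The libraries came from male Sprague-Dawley rats of 7 to 8 weeks, with 1 library per group. The Normal group had no infarct. The other groups had the left anterior descending artery tied, followed by no intervention (MI), an injection of the nitric oxide donor SNAP into the infarcted area (SNAP), the microchanneled hydrogel suture sewn over it (DTMS), or this suture filled with SNAP (S-DTMS, spelled S-DTNS in its label). The labels give the sampling time as 1 month, whereas the methods give a week after therapy. The sequencing is described with several independent replicates per group, whereas 1 library per group was analysed here, and no source used here states whether RNA of several rats was pooled. What each library stands for, 1 rat or several, is therefore unknown. Since a single library stands for each group, no spread between replicates is known and all differences are given without a p-value. Depth was nearly equal, from 16731024 to 17379225 fragments per library, as worked out from the FPKM values. The S-DTMS library stood apart over all genes: 9.98% of them lay at least 1 above SNAP in it and 9.51% above DTMS, whereas 1.95% lay as far above SNAP in DTMS. Without S-DTMS in the rule, 252 genes qualified.

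The deposited table lists rat Ensembl identifiers, and the reference table used here pairs no Ensembl identifiers with symbols. The functions of the members, their cell types and the heart markers of the libraries were therefore not analysed here. The members are described by their rank in MI, with rank 1 for the highest FPKM there, and by the length of their gene model, which followed from the FPKM values. The identifiers of the leading pair are printed.

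The members spanned a wide range of levels in MI, from an FPKM of 1.05 to 2085. Their median FPKM was 6.23 in MI and 3.32 in Normal. In the treated libraries it was 1.38 in SNAP, 1.48 in DTMS and 0.964 in S-DTMS. Among all 13769 genes the medians were 8.47 in Normal, 7.44 in MI, 6.57 in SNAP, 7.02 in DTMS and 8.71 in S-DTMS. In MI the members thus lay somewhat below the middle of all genes, and in the treated libraries far below it, as the rule required. An FPKM of at least 10 was reached by 63 members in MI, 43 in Normal, 31 in SNAP, 30 in DTMS and 28 in S-DTMS. MI was the highest of the 5 libraries for 143 members, and Normal for the other 19.

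**Figure D1:**
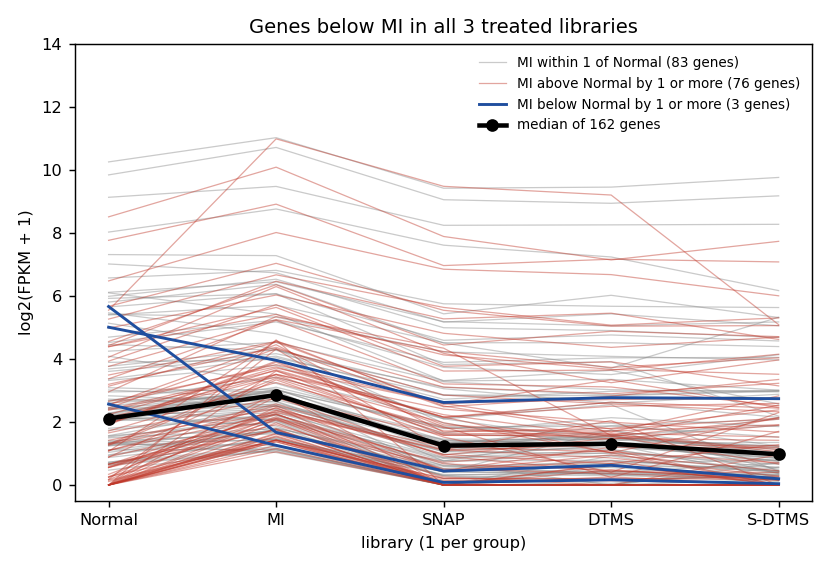
Value of each of the 162 genes, as log2(FPKM + 1), in the 5 libraries, with 1 library per group. Thin lines are single genes, coloured by whether MI was at least 1 above Normal (76 genes), within 1 of it (83) or at least 1 below it (3), and the black line is the median, which peaks in MI at 2.85 and is 2.11 in Normal.

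The abundance of the set rested on a few genes. All members together held 3.96% of the fragments of the MI library, against 1.44% in Normal, 1.26% in SNAP, 1.08% in DTMS and 0.841% in S-DTMS. The low place of S-DTMS among the treated libraries rested on the member of rank 2. That gene held 74793 fragments in SNAP, 59445 in DTMS and 3397 in S-DTMS. All members together held 219000, 180763 and 143262 there. The 4 members highest in MI alone held 3.09% in MI and 0.929% in Normal. The other members together held 0.873% in MI and 0.508% in Normal, and 0.298%, 0.264% and 0.242% in SNAP, DTMS and S-DTMS. Of the 100 genes with the highest FPKM in MI, 5 were members.

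**Figure D2:**
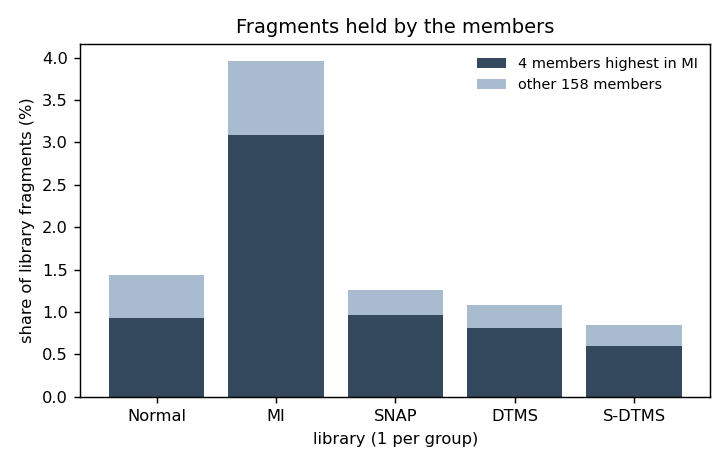
Percent of each library's fragments that fell on the members, with the 4 members highest in MI as dark bars and all other members as light bars. The MI bar reaches 3.96%, and the lowest, that of S-DTMS, reaches 0.841%. The place of S-DTMS below SNAP and DTMS rests on the member of rank 2.

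The member of rank 1, ENSRNOG00000012840 (2063 bases), had an FPKM of 1222 in Normal, 2085 in MI, 685 in SNAP, 702 in DTMS and 868 in S-DTMS. Its treated values lay close together, and all of them were below Normal as well as below MI. The ratio of MI to SNAP was 3.04 with a 95% interval from 3.00 to 3.09, an exact interval that covers the counting of fragments only. The ratio of MI to S-DTMS was 2.40, from 2.37 to 2.43 by the same interval.

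The member of rank 2, ENSRNOG00000025757 (6028 bases), behaved otherwise. It had an FPKM of 45.8 in Normal, 2030 in MI, 714 in SNAP, 589 in DTMS and 33.1 in S-DTMS. SNAP and DTMS remained far above Normal, by 3.93 and 3.66 on the log2 scale, while S-DTMS lay 0.46 below it, the difference being -0.46. The spread among its treated values, 4.39, was the widest of all members. Its own fragments made up a large part of the set in MI, with 205410 of the 665128 fragments that all members held there.

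Ranks 3 and 4 followed with gene models of 4765 and 5825 bases. Rank 3 had an FPKM of 918 in Normal, 1681 in MI, 531 in SNAP, 491 in DTMS and 579 in S-DTMS. Rank 4 had an FPKM of 364 in Normal, 1089 in MI, 236 in SNAP, 141 in DTMS and 212 in S-DTMS. Both were lower in each treated library than in Normal, and for both DTMS was the lowest of the 5 libraries.

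Of the 20 members highest in MI, all with an FPKM of 66.3 or more there, 9 were at least 1 above Normal in MI. For 14 of the 20, Normal was above the highest treated library. Their gene models measured 435 to 6028 bases. The size of the difference from MI in these 20 members ran from 1.04 to 2.20 in SNAP, from 1.01 to 3.05 in DTMS and from 1.05 to 5.90 in S-DTMS.

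The size of the difference from MI had a similar median in the 3 treatments, with values as deposited. This likeness follows at least in part from the rule, which cuts every difference at -1. The median over the members was -1.46 in SNAP (quartiles -1.79 and -1.22), -1.43 in DTMS (-1.77 and -1.18) and -1.54 in S-DTMS (-1.96 and -1.29). Over all genes tested the medians were -0.14, -0.06 and 0.15. With these medians subtracted first, 141 genes met the rule, and their medians were -1.42 in SNAP, -1.45 in DTMS and -1.74 in S-DTMS. Lower than MI by at least 1 were 4.01% of all genes in SNAP, 3.19% in DTMS and 5.73% in S-DTMS, shares that enter the rule itself. In the other direction, 2.32%, 1.46% and 8.8% of all genes were higher than MI by at least 1, a place the rule bars to members. A difference from MI of 2 or more was found in 24 members with SNAP, 24 with DTMS and 36 with S-DTMS. Of all genes tested, 0.349%, 0.283% and 0.872% were as far below MI, so that S-DTMS had the highest share there too. A total of 14 members were lower by 2 or more in all 3 treated libraries.

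**Figure D3:**
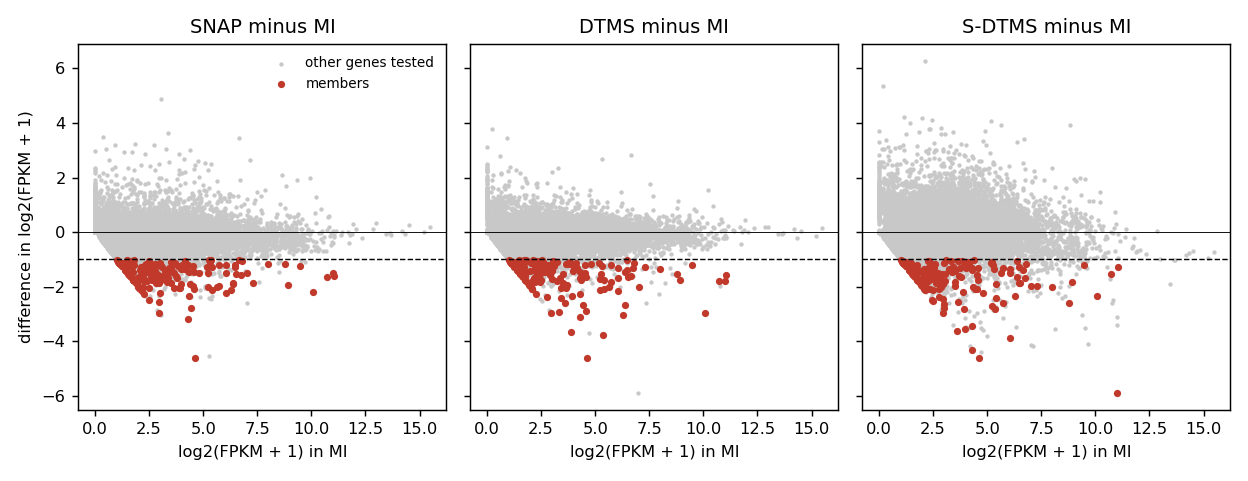
Difference of each treated library from MI in log2(FPKM + 1) against the level in MI, for the 162 members (red) and the other genes tested (grey), with 1 panel per treatment. The dashed line marks the limit of -1. The members lie under it in each panel by construction, and the lowest point among them is -5.90 in S-DTMS.

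By the median spread, the treated libraries lay somewhat closer to each other in the members than over all genes tested. The spread between the highest and the lowest treated value had a median of 0.43, against 0.58 over all genes tested. All 3 treated values were within 0.5 for 94 of the 162 members. Over all genes tested the exact count was not made, but a median of 0.58 leaves only a minority within 0.5. Of the 94, 25 had no fragment in any treated library, which alone makes their spread 0. Genes low in all 3 libraries can differ only slightly on this scale. The rank 5 member (610 bases), for example, had an FPKM of 302 in SNAP, 305 in DTMS and 309 in S-DTMS, with 713 in MI and 561 in Normal.

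A spread of 1 or more was seen in 18 members, of which 11 were lowest in S-DTMS, 6 in DTMS and 1 in SNAP. Over all genes tested 20.2% had such a spread, and of these 24.6% were lowest in S-DTMS, 33.6% in DTMS and 37.9% in SNAP. S-DTMS was at least 1 below SNAP for 9 members (3.34% of all genes) and above it by as much for 0 (9.98%). It was at least 1 below DTMS for 11 members (4.61%) and above it for 5 (9.51%). DTMS was at least 1 below SNAP for 4 members (2.08%) and above it for 1 (1.95%). The rule bounds all these counts of members, because it holds every treated value at least 1 below MI. A treated library can lie 1 above another only where the lower is at least 2 below MI. This held for 24 members in SNAP, 24 in DTMS and 36 in S-DTMS. Rank 7 (2093 bases) had an FPKM of 260 in Normal, 433 in MI, 195 in SNAP, 150 in DTMS and 71.1 in S-DTMS. Rank 28 (7213 bases) was lowest in DTMS, with an FPKM of 6.76 in Normal, 39.8 in MI, 19.3 in SNAP, 1.97 in DTMS and 4.79 in S-DTMS. Rank 17 (1257 bases) was also lowest in DTMS, with 55.0 in Normal, 81.8 in MI, 21.7 in SNAP, 12.1 in DTMS and 39.1 in S-DTMS.

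S-DTMS was the lowest of the 3 treated libraries for 71 members (43.8%), DTMS for 31 and SNAP for 29, and 31 members were tied. Over all genes tested S-DTMS was the lowest for 22.9%, DTMS for 29.9% and SNAP for 45.6%. The rule chose the members by these same treated values, so the excess over 22.9% is a description. S-DTMS also had the largest shares of all genes at least 1 below MI (5.73%) and at least 1 above it (8.8%). How far the choice of members makes this excess was not tested. The order of libraries depends on the scale. With libraries rescaled by median-of-ratios factors, S-DTMS was the lowest for 51.0% of the members and 38.5% of all genes tested. With the median change over all genes subtracted first, the shares were 73.8% and 39.2%. The part that the difference of the S-DTMS library over all genes plays in this order was not tested.

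How the members lay relative to the normal heart was the remaining question of the design. In MI, 76 of the 162 members (46.9%) were at least 1 above Normal, against 2.22% of all genes tested. The MI value takes part in choosing the members, so this excess is a description. A further 83 members lay within 1 of Normal in MI, and 3 lay at least 1 below it (4.74% of all genes). Normal was at or above MI for 19 members (11.7%), against 65.2% of all genes.

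In the 76 members that were higher in MI than in Normal, more treated values lay below Normal than above it. SNAP was below Normal for 33 and above it for 26, DTMS for 35 and 26, and S-DTMS for 37 and 21. Over all genes tested SNAP was below Normal for 10434 and above it for 3239, DTMS for 9857 and 3819, and S-DTMS for 6350 and 7342. In SNAP and DTMS the lean below Normal was thus stronger over all genes than in these members. The remaining values of the 76 members equalled Normal, mostly because 15 of the 76 had no fragment in Normal or in any treated library. Among the other 61 members the median difference from Normal was -0.07 in SNAP, -0.06 in DTMS and -0.12 in S-DTMS. All 3 treated values were within 1 of Normal for 48 of these 61, and for 63 of the 76 with the members at 0 included. Over all genes tested this held for 81.7%, and over the 305 genes at least 1 above Normal in MI, members included, for 47.2%. The rule itself keeps every treated value less than 1 above Normal where MI is less than 2 above Normal. The upper quartile of MI minus Normal in the 76 was 1.98, so the excess over the 47.2% follows at least in part from the choice of members. Rank 18 (1310 bases) had an FPKM of 22.5 in Normal, 81.0 in MI, 20.8 in SNAP, 28.5 in DTMS and 25.2 in S-DTMS. Rank 13 (1104 bases) had 37.5 in Normal, 101 in MI, 48.8 in SNAP, 32.7 in DTMS and 38.5 in S-DTMS. For both genes the treated values lay on either side of Normal and well apart from MI.

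The other 13 of these 76 members had at least 1 treated value at least 1 away from Normal. A treated value was at least 1 above Normal for 8 members and at least 1 below it for 6, and rank 28 was in both groups. Rank 36 (1805 bases) was the member farthest above Normal in S-DTMS, by 1.76, with an FPKM of 1.1 in Normal, 23.0 in MI, 4.69 in SNAP, 2.22 in DTMS and 6.11 in S-DTMS. Rank 44 (441 bases) had an FPKM of 0.13 in Normal and 18.9 in MI, and of 1.17 and 3.12 in SNAP and DTMS, and was listed at 0 in S-DTMS. No member was at least 1 above Normal in all 3 treated libraries.

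**Figure D4:**
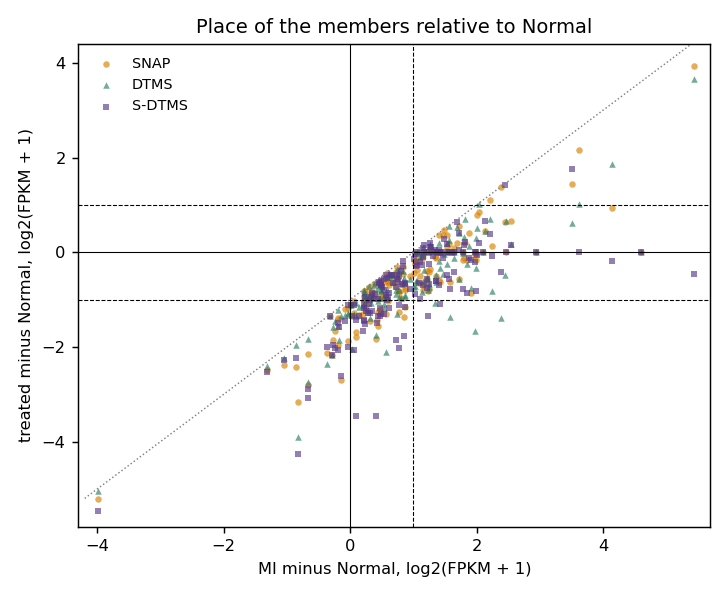
Difference of each treated library from Normal against the difference of MI from Normal, both in log2(FPKM + 1), with 3 points per member for SNAP, DTMS and S-DTMS. The dotted diagonal is the limit of the rule, dashed lines mark differences of 1, and the points of the 76 members right of the vertical dashed line spread around 0, whereas those left of it lie below 0, as the rule requires.

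In the 86 members that were less than 1 above Normal in MI, the treated values lay below Normal in every case, which the rule requires. The median difference from Normal was -0.999 in SNAP, -0.95 in DTMS and -1.16 in S-DTMS. Over all genes tested these medians were -0.27, -0.21 and 0.03. Of all 162 members, 43 were at least 1 below Normal in SNAP (7.1% of all genes), 42 in DTMS (5.46%) and 54 in S-DTMS (5.88%). At least 1 above Normal were 5 in SNAP (1.79%), 4 in DTMS (1.63%) and 2 in S-DTMS (4.63%). Counted over the whole set, Normal was above the highest treated library for 110 members (67.9%, against 31.8% of all genes tested). The rule forces this for the 86, and the other 24 came from the 76 members higher in MI, so the excess follows largely from the choice of members. With median-of-ratios factors the shares were 62.1% and 22.7%. Of the 110, 91 had Normal between the highest treated library and MI (6.55% of all genes). Normal was below the lowest treated library for 10 members (6.17%, against 7.04% of all genes) and inside the treated range for 42 (25.9%, against 21.2%).

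For 32 members each treated library was at least 1 below Normal too, which held for 1.68% of all genes tested. The rule forces this for the 19 members with Normal at or above MI, so much of the excess follows from the choice of members. The infarct without treatment differed little from Normal in most of the 32, with a median of -0.12 for MI minus Normal and 29 of the 32 within 1. This was near the place of genes in general. Over all genes tested the median was -0.12 too, with 2.22% at least 1 above Normal in MI and 4.74% at least 1 below it. S-DTMS was the lowest treated library for 20 of the 32 (22.9% of all genes tested), a count drawn from values that the rule used. Rank 9 (2176 bases) had an FPKM of 158 in Normal, 155 in MI, 42.2 in SNAP, 64.0 in DTMS and 38.9 in S-DTMS. Rank 43 (1924 bases) had 34.2 in Normal, 18.9 in MI, 2.90 in SNAP, 1.34 in DTMS and 0.82 in S-DTMS. In ranks 9 and 43 Normal and MI stood together on the high side, and no treated value came near either. Of the 32 members, 19 had at least 100 fragments in MI, and the rest were shallower.

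Rank 26 (856 bases) showed the same order, with an FPKM of 67.6 in Normal, 42.0 in MI, 8.87 in SNAP, 9.22 in DTMS and 7.06 in S-DTMS. Rank 21 (2342 bases) had 49.3 in Normal, 66.1 in MI, 13.2 in SNAP, 14.1 in DTMS and 3.56 in S-DTMS. S-DTMS was the lowest library for both, by a wide margin only for rank 21.

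The 3 members at least 1 lower in MI than in Normal were lower still in every treated library, as the rule requires of all members. Rank 133 (3191 bases) had an FPKM of 49.8 in Normal, 2.18 in MI, 0.36 in SNAP, 0.54 in DTMS and 0.15 in S-DTMS. Rank 51 (2188 bases) had 31.2 in Normal, 14.5 in MI, 5.15 in SNAP, 5.85 in DTMS and 5.69 in S-DTMS. Rank 152 (1964 bases) had 4.94 in Normal, 1.40 in MI, 0.06 in SNAP, 0.12 in DTMS and 0.03 in S-DTMS. For rank 133 most of the distance from Normal was already present in MI, with a difference of -4.00.

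Depth set how firmly each member could be read. The MI library held at least 1000 fragments for 33 members, 100 to under 1000 for 67, 20 to under 100 for 29, and fewer than 20 for 33. Of all genes tested in these classes, 1.27%, 0.880%, 1.31% and 2.45% were members. In the deepest class the median difference from MI was -1.50 in SNAP, -1.66 in DTMS and -1.65 in S-DTMS. In the shallowest class 22 of the 33 members were at 0 in every treated library, so that their differences follow from the MI value and the pseudocount alone. Among the 100 members with at least 100 fragments in MI, 47 were at least 1 above Normal in MI, against 1.63% of the 10205 genes of that depth. In the same 100 members, Normal was above the highest treated library for 72 (30.7% of genes of that depth), of which the rule forces 53. S-DTMS was the lowest treated library for 50 (23.0%), a count drawn from values that the rule used.

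Many of the shallow members had short gene models. A length under 200 bases was found in 30 members (18.5%), against 4.83% of all genes tested, and 29 of the 30 had fewer than 20 fragments in MI. In such a gene a few fragments are enough for an FPKM of 1. Of the short genes 4.51% were members, and of the longer ones 1.01%. The median length was 1505 bases in the members and 2119 in all genes tested. It was 1805 and 2308 bases among those with at least 20 fragments in MI. The longest member measured 11553 bases, and the shortest inferred length was 28 bases, which can be too short where the fragments of a gene share a common divisor.

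**Figure D5:**
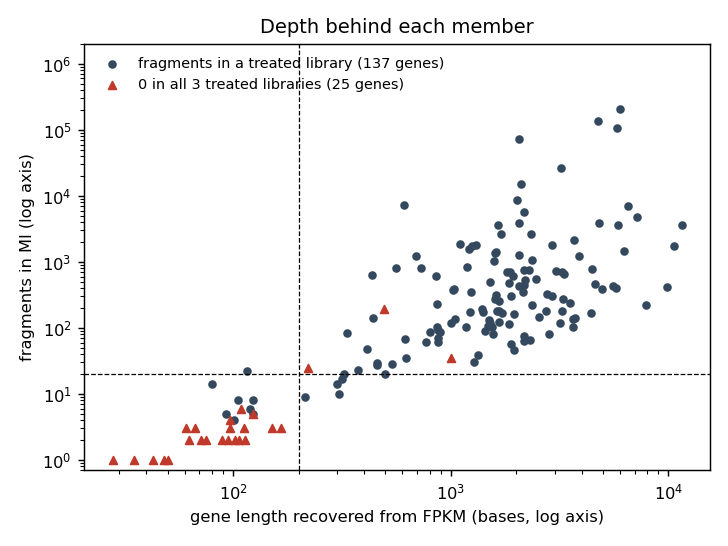
Fragments in MI against gene length for the 162 members, both on log axes, with dashed lines at 20 fragments and 200 bases. Red triangles are the 25 members with 0 fragments in all 3 treated libraries, of which 22 lie left of the 200-base line, and circles are the other 137.

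A total of 25 members had no fragment in any of the 3 treated libraries, and 15 of these had none in Normal. With 3 fragments taken as the limit that a count of 0 allows in a library, 19 of the 25 had no more than this in MI and give no fold. The counts of these genes are themselves inferred, and where fragments lay in 1 library only, as for 15 members, both fragments and length are the smallest that the value allows and can be too low. The exception in depth was rank 35 (492 bases), with 193 fragments in MI, an FPKM of 23.4, and 0 in the other 4 libraries. Set against 3 fragments, MI was 65.6-fold higher than Normal, 66.6-fold than SNAP, 64.1-fold than DTMS and 65.3-fold than S-DTMS. The exact 95% lower limits, which also cover the counting of the MI fragments, were 52.9, 53.7, 51.7 and 52.6. The next deepest of the 25 had 35 fragments in MI. With values of 0 set to 3 fragments, over the 143 members with more than 3 fragments in MI, the median difference was -1.44 in SNAP, -1.38 in DTMS and -1.52 in S-DTMS.

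The members did not form a separate group at the limit of the rule. The smallest of the 3 differences was under 1.1 in size for 37 members. Where MI reached an FPKM of 10 or more, the 3 members just inside the limit had smallest differences of 1.005, 1.015 and 1.015 in size, and the 3 genes just outside had 0.999, 0.999 and 0.991. The member nearest the limit was rank 28, which passed narrowly in SNAP. The gene nearest to it from outside had an FPKM of 2.86 in Normal, 13.2 in MI, 5.39 in SNAP, 3.96 in DTMS and 6.10 in S-DTMS.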

How the data were processed

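Left ventricular wall RNA of 5 rat groups was sequenced, with 1 library per group, mapped to groups by the labels. No column belonged to another sample. The authors deposited the values as FPKM. The submitters' processing notes list HTSeq and, although the animals are rats, the mouse build mm9. The aligner and the annotation are not given in the sources used here.

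Members were genes whose log2(FPKM + 1), with a pseudocount of 1, lay at least 1 below MI in all 3 treated libraries. Genes whose highest FPKM was 1 or more served as background. Fragments were worked out from the FPKM values: the commonest ratio of low values gave relative depth, whole gene lengths gave the library totals (held within 0.02 bases for 96.2% of 1259 genes), and the smallest whole length gave each gene's fragments. All 20304 genes above 0 received whole fragments. The method was tested on simulated data. Intervals and limits cover counting error only.

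The members and lists were chosen with earlier results of these data known. Members described singly were the 20 highest in MI, the 10 with the largest smallest difference, the 6 highest among those less than 1 above Normal in MI, any with Normal at least 1 below the lowest treated library (0 found), and those nearest the limit, of which a few are printed. Ranks 36, 51, 133 and 152 fall outside this rule and were described as examples of their group after their values were seen. The 31 gene lists and cell type markers that had been drawn up were not used, because the reference table used holds no Ensembl identifiers, so that 0 of 20646 matched. Python 3.11.15, NumPy 2.4.6, pandas 2.3.3, SciPy 1.17.1 and Matplotlib 3.10.9 were used.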

Additional observations from a re-analysis of the deposited data

How the results depend on the processing

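Of 70 recomputed values, 44 stayed within a factor of 1.5 (counts) or inside the 95% order-statistic interval of the median over members (medians), and 26 moved further. With a pseudocount of 0.1, 330 genes met the rule, 145 of them higher in MI than in Normal, 18 with Normal below and 229 with Normal above all treated libraries, 150 lowest in S-DTMS, and median differences of -1.74 (SNAP), -1.72 (DTMS) and -2.23 (S-DTMS). At a log2 change of at least 2, these were 14, 5, 0, 9 and 7 genes, and -2.16, -2.49 and -2.64. With an FPKM of at least 5, 90 genes remained, 42 higher in MI, 65 with Normal above all treated libraries and 44 lowest in S-DTMS, with medians of -1.52 in DTMS and -1.67 in S-DTMS. With the median change over all genes subtracted, the S-DTMS median was -1.74. Without the S-DTMS library in the rule, an alternative added after seeing the data, 252 genes qualified, 23 with Normal below and 186 with Normal above the remaining treated libraries. A smaller pseudocount damps low genes less, and a stricter limit or filter leaves fewer genes. Scaling by the median of ratios gave 145 genes, 138 of them among the 162 members, rescaling to TPM 220 (152 shared, 103 higher in MI), subtracting the median change 104 lowest in S-DTMS, and a minimum of 20 fragments in MI 129. Removing the filter changed nothing, since a gene under an FPKM of 1 in MI cannot meet the rule. The share of members at least 1 higher in MI than in Normal lay between 35.7% and 49.6% in all alternatives tried.

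No paired analysis was possible because the 5 groups hold 1 library each. No replicate was left out for the same reason, and the variation between rats is unknown. Nearly equal depth did not limit abundant members, but 33 members rested on fewer than 20 fragments in MI.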
